A study of Mus musculus with 18 samples.

Results

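Hematopoietic stem cell transcription factors were followed in leukemic and normal mouse marrow cells, as 9 genes: Hlf, Mecom, Gata2, Erg, Tal1, Lyl1, Lmo2, Hhex and Prdm16. They were chosen by name, as known regulators of blood stem cells, and each was read from a probe set that maps to that gene alone. Where a gene had several such probe sets, the one with the highest mean was used. The 9 genes are part of 22180 genes with a probe set of their own, of which 16337 were tested. On all 17 arrays used, each of the 9 exceeded the array's own 40th percentile, so none entered the test through 1 group alone.

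The cells came from 4F mice, which carry Dox-inducible Oct4, Sox2, Klf4 and c-Myc, and all 6 groups share this genotype. AML cells were GFP+ leukemia cells with the fusion oncogene MLL-AF9, taken from leukemic mice. LSK cells were normal marrow cells sorted as Lin-, Kit+ and Sca1+, a fraction rich in stem and progenitor cells. The groups are AML Dox, AML Compound, AML Control, LSK Dox, LSK Compound and LSK Control, with 3 arrays each. Dox is doxycycline, the inducer of the 4 transgenes by their design. Compound is the mix VC6T of 4 small molecules: VPA, which inhibits histone deacetylases, CHIR, which inhibits the kinase GSK3, 616452, which blocks a receptor of TGF-beta, and TCP, which inhibits the demethylase LSD1. Treatment lasted 24 h in vitro, and the time of the controls was not given apart from this. Replicates are named biological repeats, with no word on whether each was its own animal or culture, so each p-value covers just the differences among these arrays, which may be technical. Nothing in the labels says how many leukemic mice were used or whether cells were pooled.

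These factors work together on DNA. TAL1 and LYL1 are related basic helix-loop-helix proteins that bind E-box sites as dimers with E proteins, and the adaptor LMO2 joins them to GATA factors such as GATA2. ERG is an ETS factor that shares many binding sites with them in blood progenitors. HLF, MECOM, PRDM16 and HHEX act beside this complex: HLF is a PAR bZIP factor whose RNA marks stem cells, MECOM (also called EVI1) and PRDM16 are related zinc-finger proteins needed to keep stem cells, and HHEX is a homeobox factor of early progenitors.

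Values are log2 expression after RMA, and a change was called when the limma adjusted p was under 0.05. Arrays of 1 group correlated at 0.979 to 0.989 over all probe sets. LSK Compound replicate 1 correlated with the other arrays at only 0.638 to 0.672 and read 4.56 for Actb, against 8.83 to 9.28 on the others, and it was left out, so that LSK Compound stands on 2 arrays. Klf4, one of the transgenes, read 9.14 ± 0.08 in AML Dox cells and 3.27 ± 0.14 in AML Control cells, and 8.21 ± 0.08 in LSK Dox cells and 3.83 ± 0.12 in LSK Control cells (SD, n = 3 each). The genes of the other transgenes did not all read higher under Dox. Pou5f1 (Oct4) and Sox2 were called higher in AML Dox (0.67, adjusted p = 0.00187, and 1.31, adjusted p = 4.37e-05) and not in LSK Dox (0.15, adjusted p = 0.592, and 0.30, adjusted p = 0.394). Myc was lower under Dox, at 4.57 ± 0.36 in AML Dox and 8.67 ± 0.04 in AML Control, and at 8.73 ± 0.13 in LSK Dox and 9.34 ± 0.13 in LSK Control (SD, n = 3 each). Whether these probe sets read the transgenes was not analysed here. Both LSK Compound arrays held Y-linked RNA (Uty 5.03 and 5.13, Eif2s3y 5.20 and 5.47), while Uty did not pass 2.53 on any of the other 15 arrays. Xist read 7.32 and 7.35 there, against 9.28 to 9.56 in LSK Control, and 2.38 to 2.63 in AML Control. The Y-linked genes Uty, Eif2s3y and Kdm5d were also called higher in AML Compound than in AML Control. These differences were 0.44, 0.46 and 0.40 (limma adjusted p = 0.00253, 0.0131 and 0.0121), at low AML Compound means of 2.35, 2.47 and 2.58. The LSK identity was checked by 8 stem and progenitor markers, of which 7 exceeded the 40th percentile on every LSK Control array and 7 on every AML Control array. Their summed log2 level was 32.5 to 33.2 in AML Control and 39.6 to 40.6 in LSK Control. Of 9 mature myeloid markers, 9 exceeded the 40th percentile on every LSK Control array and 6 on every AML Control array. The LSK Control means of these 9 ran from 4.45 (Adgre1) to 8.93 (S100a8), in cells sorted as Lin-. Kit read 7.71 ± 0.05 in LSK Control (SD, n = 3), Slamf1 exceeded the 40th percentile on 0 of the 3 LSK Control arrays, and Sca1 (Ly6a) was not analysed here. GFP was not analysed here either.

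Promoters of 4 of the factors are shown because Lyl1, Gata2 and Erg fell together under Dox in AML cells and Mecom rose under Dox in both cell types. The Mecom rise was seen on the probe set used and not on its second one. Each window runs from 250 bases before to 50 bases after a RefSeq transcript start (GRCm38.p6), 5′ to 3′ on the gene's strand, and capitals mark a match to a searched motif on either strand. Lyl1 lies at chr8:84701207-84701506 on the plus strand and Gata2 window 1 at chr6:88193641-88193940 on the plus strand. Erg window 1 lies at chr16:95459299-95459598 on the minus strand and Mecom window 2 at chr3:30509710-30510009 on the minus strand. For Erg and Mecom the window printed is the one with a match, and their other windows hold none. The Hhex window, of a gene that fell too, holds none and is not printed.
Lyl1: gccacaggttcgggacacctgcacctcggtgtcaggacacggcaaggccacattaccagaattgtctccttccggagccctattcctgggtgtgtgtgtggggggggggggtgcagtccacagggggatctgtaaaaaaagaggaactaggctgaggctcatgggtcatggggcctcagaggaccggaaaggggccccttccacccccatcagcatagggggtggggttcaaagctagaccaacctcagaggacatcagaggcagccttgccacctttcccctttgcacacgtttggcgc
Gata2: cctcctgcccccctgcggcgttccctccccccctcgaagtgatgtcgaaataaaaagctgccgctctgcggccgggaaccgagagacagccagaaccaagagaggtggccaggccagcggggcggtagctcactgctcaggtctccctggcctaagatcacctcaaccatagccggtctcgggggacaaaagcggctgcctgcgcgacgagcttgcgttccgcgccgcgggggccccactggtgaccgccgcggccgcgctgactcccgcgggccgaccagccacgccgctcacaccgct
Erg: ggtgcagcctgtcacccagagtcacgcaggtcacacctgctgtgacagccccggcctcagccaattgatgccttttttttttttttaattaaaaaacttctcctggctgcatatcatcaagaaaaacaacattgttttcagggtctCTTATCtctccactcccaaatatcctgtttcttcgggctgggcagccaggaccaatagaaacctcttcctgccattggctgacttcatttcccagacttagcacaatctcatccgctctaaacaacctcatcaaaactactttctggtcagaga
Mecom: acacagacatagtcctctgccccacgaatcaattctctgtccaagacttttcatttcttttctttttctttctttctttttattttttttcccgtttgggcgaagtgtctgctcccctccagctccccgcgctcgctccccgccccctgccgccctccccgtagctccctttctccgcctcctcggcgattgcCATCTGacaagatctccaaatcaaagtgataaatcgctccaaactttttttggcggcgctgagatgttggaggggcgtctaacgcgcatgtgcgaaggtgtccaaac

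Of the 9 factors, 8 have a promoter window in the RefSeq table, with 13 windows in all, and Lmo2 is named only. The GATA motif GATAAG was found in 1 of the 13 windows, the Erg window printed above, where its reverse complement starts at position -104 from the transcript start. This motif is in 7.44% of all 32851 windows of the same length. The E-box of TAL1 and LYL1 dimers, CAGATG, was found in the Mecom window printed above, at position -57, and in 1 Tal1 window, and it is in 17.2% of all windows. The ETS motif GGAAGT, the RUNX motif TGTGGT, the MYC E-box CACGTG, the KLF4 motif GGTGTGG and the OCT4 motif ATGCAAA were in 0 of the 13 windows, and in 23.8%, 16.8%, 7.15%, 7.58% and 4.63% of all windows. The searched motifs do not overlap one another in these windows. Base composition differed widely between the windows, with 75.7% G and C at Hhex and 37.3% in Erg window 2, against a median of 52.7% over all windows.

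**Figure D1:**
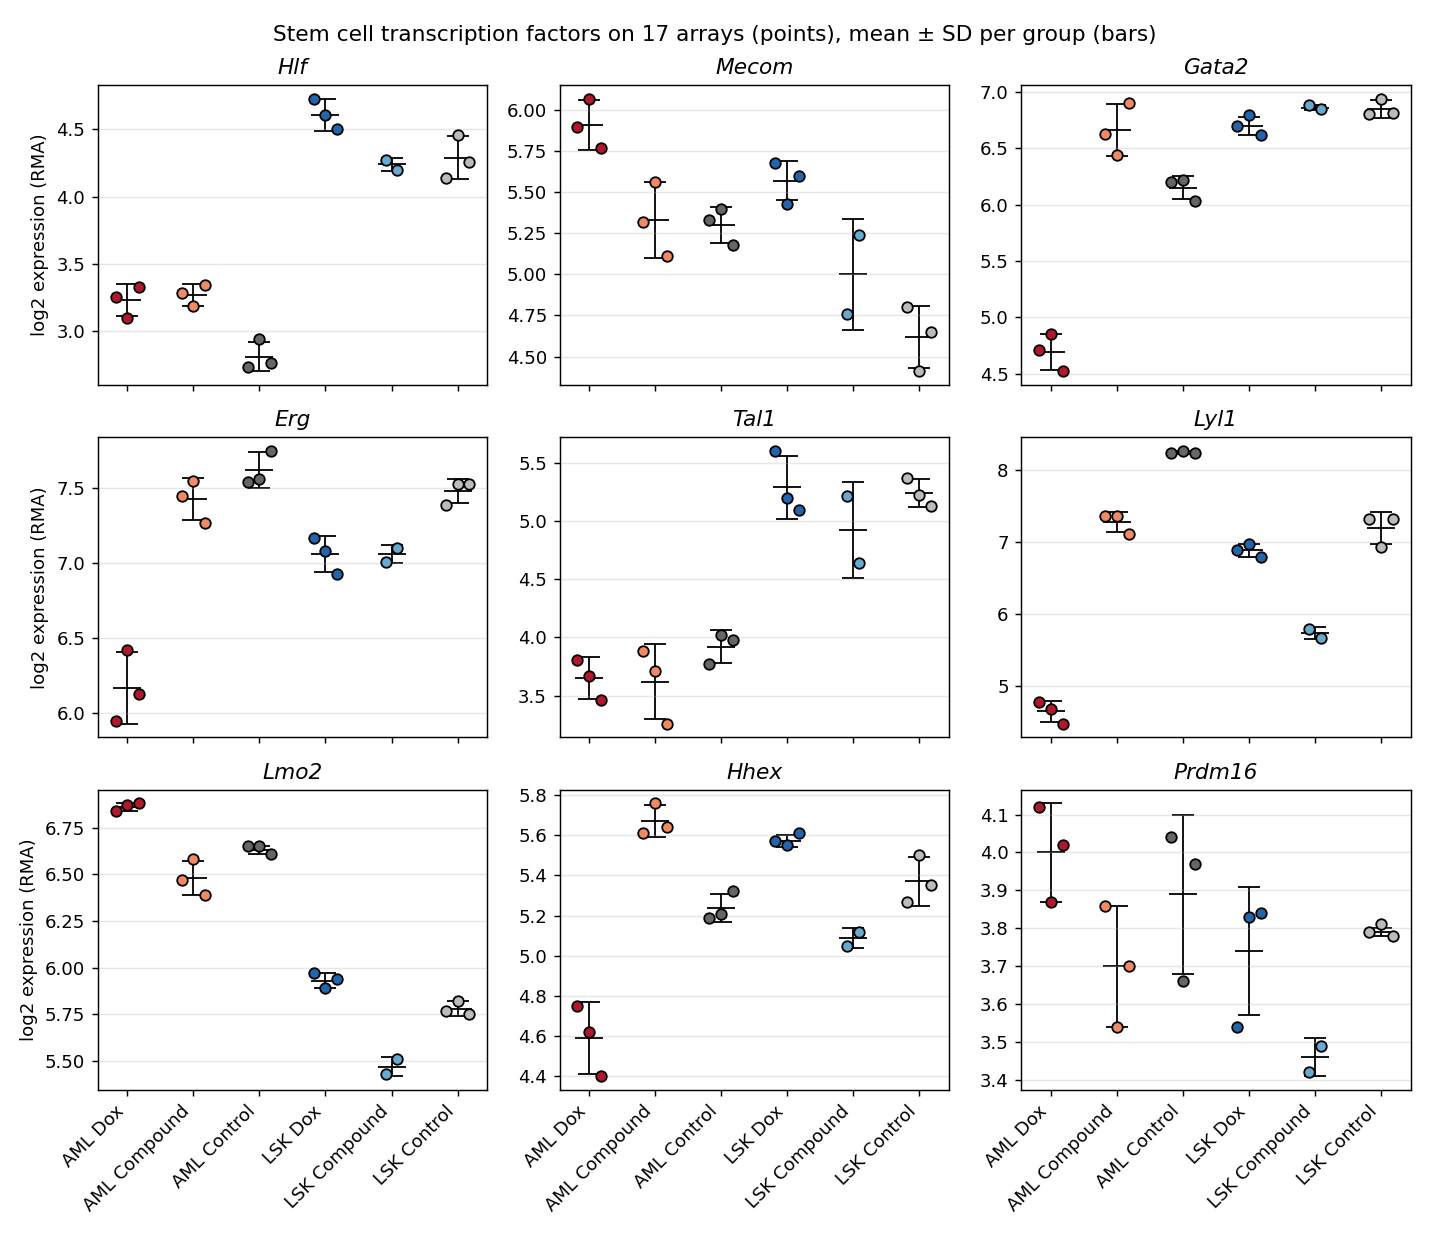
Log2 expression (RMA, y axis) of the 9 factors on each of the 17 arrays, by group on the x axis, with AML groups left of LSK groups. Points are arrays and bars the mean ± SD of a group (n = 3, LSK Compound n = 2). The AML Dox group has the lowest mean for Lyl1, Gata2, Erg and Hhex. It has the highest for Lmo2 and Mecom, and for Prdm16, where its arrays overlap with the next group.

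The 9 factors fell into different orders over the 6 groups. Lyl1 had the widest span of group means, 3.60 log2 units, with AML Control highest at 8.24 ± 0.02 and AML Dox lowest at 4.64 ± 0.15 (SD, n = 3 each). Between them came AML Compound at 7.27, LSK Control at 7.19, LSK Dox at 6.88 and LSK Compound at 5.73, and only the first 3 of these 4 had arrays that overlapped with a neighbour. Gata2 spanned 2.17 units, with 3 LSK groups and AML Compound between 6.66 and 6.86, AML Control at 6.15 and AML Dox at 4.69. The arrays of AML Control and AML Dox overlapped with no neighbour in this order.

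Hlf and Tal1 divided the groups by cell type. Hlf lay between 2.73 and 3.34 on the 9 AML arrays and between 4.14 and 4.73 on the 8 LSK arrays. Tal1 lay between 3.26 and 4.02 on the AML arrays and between 4.64 and 5.60 on the LSK arrays. Lmo2 divided them the other way, with 6.39 to 6.88 on AML arrays and 5.43 to 5.97 on LSK arrays. For these 3 genes every array of one cell type lay apart from every array of the other, as it did for 6.63% of all genes tested.

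Erg spanned 1.45 units, with AML Control at 7.62, LSK Control at 7.48, AML Compound at 7.43, LSK Dox and LSK Compound both at 7.06, and AML Dox at 6.17. Mecom spanned 1.30 units in the order AML Dox 5.91, LSK Dox 5.57, AML Compound 5.33, AML Control 5.30, LSK Compound 5.0 and LSK Control 4.62, and every group after AML Dox overlapped with its neighbour. Hhex spanned 1.08 units, with AML Compound highest at 5.67 and AML Dox lowest at 4.59. Prdm16 had the narrowest span, 0.55 units, and its arrays overlapped between neighbours in each step of the order but the last, to LSK Compound at 3.46.

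The leukemia cells and the normal cells without treatment differed in 6 of the 9 factors, 3 higher and 3 lower in AML Control than in LSK Control. Of all genes tested 29.6% were called, 15.4% higher and 14.2% lower. The median difference was 0.10 over the 9 factors and 0.0047 over all genes. Fewer cells of a type and less RNA per cell cannot be told apart in these bulk samples.

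Hlf was lower in the leukemia cells, where it lay near the median of all probe sets (2.66 to 2.67 on the AML Control arrays). It read 2.73, 2.94 and 2.76 on the AML Control arrays, against 4.14, 4.46 and 4.26 on the LSK Control arrays, a log2 difference of -1.48 (SE 0.10, limma adjusted p = 5.28e-09), or 2.79-fold lower. Tal1 read 3.77, 4.02 and 3.98 in AML Control against 5.37, 5.22 and 5.13 in LSK Control (-1.32, SE 0.18, adjusted p = 1.63e-05). The groups were apart for 7 of the 9 factors, Hlf and Tal1 among them, and for 43.4% of all genes. Gata2, which partners TAL1, was lower by a smaller amount, with 6.20, 6.22 and 6.03 in AML Control against 6.80, 6.94 and 6.81 in LSK Control (-0.70, SE 0.11, adjusted p = 0.000131).

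The other bHLH member and the adaptor were higher in the leukemia cells. Lyl1 read 8.23, 8.26 and 8.23 in AML Control, against 7.31, 6.93 and 7.32 in LSK Control (1.05, SE 0.11, adjusted p = 1.65e-06), or 2.07-fold higher. Lmo2 read 6.65, 6.65 and 6.61 in AML Control against 5.77, 5.82 and 5.75 in LSK Control (0.85, SE 0.07, adjusted p = 1.11e-07). So the paralogs Tal1 and Lyl1 stood in opposite directions, with Tal1 lower and Lyl1 higher in AML cells. Mecom was higher as well, with 5.33, 5.40 and 5.18 in AML Control against 4.8, 4.41 and 4.65 in LSK Control (0.68, SE 0.14, adjusted p = 0.00138).

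Erg, Hhex and Prdm16 were not called between the untreated cell types. Their differences were 0.13 (95% interval -0.11 to 0.38), -0.13 (-0.33 to 0.08) and 0.10 (-0.15 to 0.35). Markers of other cells differed beside these results: the summed log2 level of 9 mature myeloid markers was 35.2 to 35.5 in AML Control and 57.4 to 58.9 in LSK Control, with 1 of 9 higher and 7 lower, and S100a9 and Camp above the 40th percentile on 0 of the 3 AML Control arrays. For 10 mast cell and basophil markers the sum was 26.2 to 27.1 in AML Control and 35.4 to 36.0 in LSK Control. Of the 6 tested 1 was higher and 4 were lower in AML Control. For 5 megakaryocyte markers the sum was 14.6 to 15.3 in AML Control and 17.9 to 19.3 in LSK Control. Of these 0 were higher and 3 lower in AML Control. The part of these markers in the result, and of the Xist difference given above, was not tested.

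In AML cells under Dox, Lyl1, Gata2, Erg and Hhex fell, and Mecom, Hlf and Lmo2 rose. That is 7 of 9 called, 3 higher and 4 lower, where 48.6% of all genes tested were called, 23.0% higher and 25.6% lower. The arrays of AML Dox and AML Control did not overlap for 7 of the 9, and for 55.7% of all genes. The median difference was -0.28 for the 9 factors and -0.0094 over all genes. Some of these changes were of a common size. A larger difference in either direction was seen for 31.9% of all genes tested against Mecom, 41.7% against Hlf and 57.6% against Lmo2. The share was 10.7% for Gata2, 10.8% for Erg and 30.4% for Hhex. Gapdh, a check gene, differed by -0.44 (limma adjusted p = 5.67e-05).

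Lyl1 fell most. It read 4.77, 4.67 and 4.47 on the AML Dox arrays, against 8.23, 8.26 and 8.23 on the AML Control arrays, a log2 difference of -3.60 (SE 0.11, limma adjusted p = 7.37e-14), or 12.1-fold lower. Only 0.71% of the genes tested had a larger difference in either direction. Its paralog Tal1 read 3.81, 3.67 and 3.46 in AML Dox against 3.77, 4.02 and 3.98 in AML Control, which was not called (-0.28, 95% interval -0.65 to 0.09, adjusted p = 0.222). Lmo2, the adaptor, read 6.84, 6.87 and 6.88 in AML Dox and 6.65, 6.65 and 6.61 in AML Control, a rise of 0.23 (SE 0.07, adjusted p = 0.0182) that missed the threshold without AML Control replicate 3 (0.0597), without AML Dox replicate 3 (0.0504) or with arrays centred on the median (0.172). Of the paralogs, Lyl1 RNA thus fell and Tal1 RNA was not called, while RNA of the adaptor Lmo2 rose.

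Gata2 and Erg fell by nearly the same amount. Gata2 read 4.71, 4.85 and 4.52 in AML Dox against 6.20, 6.22 and 6.03 in AML Control (-1.46, SE 0.11, adjusted p = 5.59e-09), or 2.75-fold lower. Erg read 5.95, 6.42 and 6.13 in AML Dox against 7.54, 7.56 and 7.75 in AML Control (-1.45, SE 0.12, adjusted p = 9.39e-09), or 2.73-fold lower. All AML Dox arrays lay under all AML Control arrays for both genes. Hhex fell by less, with 4.75, 4.62 and 4.40 in AML Dox against 5.19, 5.21 and 5.32 in AML Control (-0.65, SE 0.10, adjusted p = 1.72e-05).

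Mecom read 5.90, 6.07 and 5.77 in AML Dox against 5.33, 5.40 and 5.18 in AML Control (0.61, SE 0.14, adjusted p = 0.00153). The second probe set of Mecom did not show this rise (-0.05, adjusted p = 0.821). Hlf read 3.25, 3.10 and 3.33 in AML Dox against 2.73, 2.94 and 2.76 in AML Control (0.42, SE 0.10, adjusted p = 0.00223). Both rises set the AML Dox arrays apart from the AML Control arrays. For Hlf the AML Dox level stayed under that of each LSK array. The Hlf values of AML Control lay near the array medians over all probe sets (2.66 to 2.67), and the AML Dox medians were 2.75. Prdm16, the relative of Mecom, was not called (0.11, 95% interval -0.14 to 0.36, adjusted p = 0.49).

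Markers moved in AML Dox cells as well. The summed mast cell and basophil markers were 22.9 to 23.7 in AML Dox and 26.2 to 27.1 in AML Control, with 0 of the 6 tested higher and 3 lower, and the mature myeloid sum was 36.6 to 37.8 in AML Dox and 35.2 to 35.5 in AML Control, with 2 of 9 higher and 2 lower. The erythroid sum over 4 markers was 11 to 11.3 in AML Dox and 14.5 to 15.1 in AML Control. Of the 4 markers 0 were called higher and 1 lower. The transferrin receptor gene Tfrc averaged 3.82 in AML Dox and 7.52 in AML Control. The megakaryocyte sum was 15 to 15.9 in AML Dox and 14.6 to 15.3 in AML Control. Of its 5 markers 0 were called. The sum of the 8 stem and progenitor markers was 31.3 to 31.9 in AML Dox and 32.5 to 33.2 in AML Control. Of the 7 tested 2 were higher and 3 lower, with Kit at 3.44 in AML Dox and 6.22 in AML Control and Mllt3 at 7.61 and 5.33. Their part in the result was not tested.

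In LSK cells Dox changed 3 of the 9 factors: Mecom and Hlf rose and Erg fell. Of all genes tested 19.1% were called, 9.21% higher and 9.93% lower. The median difference was 0.05 over the 9 factors and -0.05 over all genes. Mecom read 5.68, 5.43 and 5.60 in LSK Dox against 4.8, 4.41 and 4.65 in LSK Control (0.95, SE 0.14, limma adjusted p = 0.000121), or 1.94-fold higher, and 3.09% of the genes tested had a larger difference. The second probe set of Mecom did not show this rise (-0.02, adjusted p = 0.943). The groups were apart for 6 of the 9 factors, Mecom, Hlf and Erg among them, and for 36.1% of all genes.

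Hlf read 4.73, 4.61 and 4.50 in LSK Dox against 4.14, 4.46 and 4.26 in LSK Control (0.32, SE 0.10, adjusted p = 0.0344). Erg read 7.17, 7.08 and 6.93 in LSK Dox against 7.39, 7.53 and 7.53 in LSK Control (-0.42, SE 0.12, adjusted p = 0.0171). Of all genes tested 21.6% had a larger difference than Hlf and 14.2% a larger one than Erg. These 2 calls were close to the threshold: without LSK Control replicate 3 the adjusted p of Hlf was 0.0935 and that of Erg 0.0598, which left 1 factor called, and the Hlf call also missed the threshold without LSK Control replicate 1 (0.154), LSK Dox replicate 1 (0.137) or LSK Dox replicate 2 (0.0787). With the 2 groups compared alone (0.0811), quantile normalization (0.0601), or a trended and robust prior (0.0848) it missed the threshold again. Without LSK Control replicate 2 (0.0592) or LSK Dox replicate 3 (0.0832) the Erg call missed it too.

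Lyl1, Gata2 and Hhex, which fell in AML cells, were not called in LSK cells. Lyl1 read 6.89, 6.96 and 6.78 in LSK Dox against 7.31, 6.93 and 7.32 in LSK Control (-0.31, 95% interval -0.55 to -0.07, adjusted p = 0.0706), with arrays that overlapped, and without LSK Control replicate 2 it was called lower (-0.44, adjusted p = 0.0123). Gata2 differed by -0.15 (-0.39 to 0.09) and Hhex by 0.20 (0.001 to 0.41, adjusted p = 0.165). Tal1, Lmo2 and Prdm16 differed by 0.05 (-0.32 to 0.42), 0.15 (-0.003 to 0.31) and -0.06 (-0.30 to 0.19). The LSK Dox and LSK Control arrays were apart for Gata2, Hhex and Lmo2, which are the rest of the 6 factors counted above. The mast cell and basophil sum was 27.7 to 28.0 in LSK Dox and 35.4 to 36.0 in LSK Control, with 4 of 6 tested lower, and the mature myeloid sum was 52.4 to 52.7 in LSK Dox and 57.4 to 58.9 in LSK Control, with 1 of 9 higher and 6 lower. The megakaryocyte sum was 20.8 to 21.6 in LSK Dox and 17.9 to 19.3 in LSK Control, with 2 of 5 higher and 2 lower. Ppbp among the 5 averaged 6.41 in LSK Dox and 2.80 in LSK Control, while Itga2b averaged 3.64 and 4.41 and Gp9 3.91 and 4.66. The sum of the 8 stem and progenitor markers was 44 to 44.2 in LSK Dox and 39.6 to 40.6 in LSK Control, with 4 of the 7 tested higher and 2 lower. The part of these markers was not tested.

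**Figure D2:**
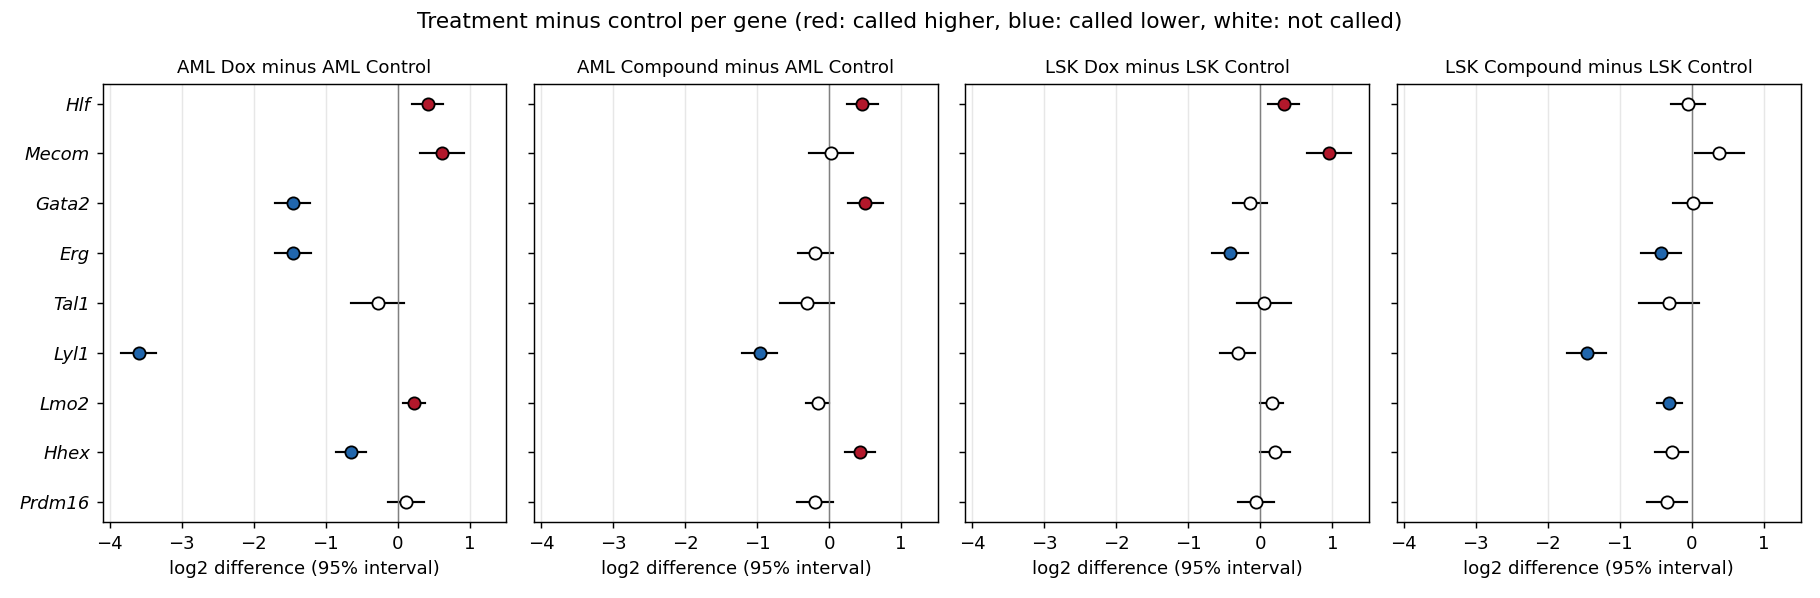
Log2 difference of treated minus control cells (x axis, points) with its 95% interval (lines) for each of the 9 factors (rows) in 4 comparisons. Lyl1 lies at -3.60 in AML Dox, -0.96 in AML Compound and -1.46 in LSK Compound, and filled points mark calls at a limma adjusted p under 0.05.

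The difference between the cell types in their response to Dox was tested itself. It was called for 4 of the 9 factors, 0 more positive and 4 more negative in AML than in LSK cells, where 40.1% of all genes were called, 18.6% more positive and 21.5% more negative. The AML response minus the LSK response was -3.29 for Lyl1 (SE 0.16, adjusted p = 8.42e-11), -1.31 for Gata2 (SE 0.16, adjusted p = 3.34e-06), -1.03 for Erg (SE 0.17, adjusted p = 7.08e-05) and -0.85 for Hhex (SE 0.14, adjusted p = 6.21e-05). The responses of the 2 genes that rose in both cell types were not shown to differ: the interval of this difference was -0.77 to 0.09 for Mecom and -0.21 to 0.40 for Hlf.

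**Figure D3:**
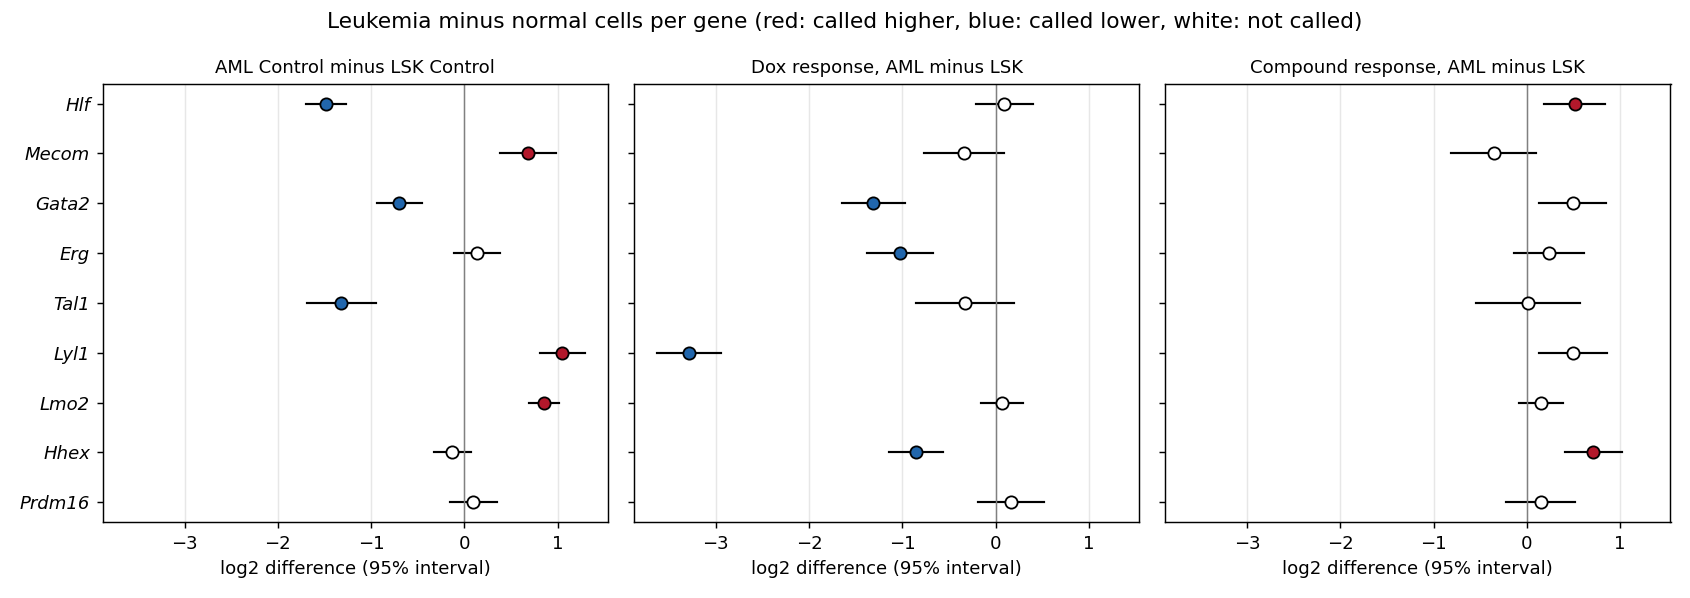
Log2 differences between leukemia and normal cells (x axis, points) with 95% intervals (lines) for the 9 factors (rows). The first panel compares AML Control with LSK Control, and the others give the AML response minus the LSK response to Dox and to Compound, where Lyl1 lies at -3.29 for Dox and Hhex at 0.71 for Compound.

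Compound in AML cells changed 4 of the 9 factors: Hlf, Gata2 and Hhex rose and Lyl1 fell. Of all genes 32.0% were called, 12.8% higher and 19.2% lower. The median difference was -0.16 over the 9 factors and -0.03 over all genes. Lyl1 read 7.36, 7.36 and 7.11 in AML Compound against 8.23, 8.26 and 8.23 in AML Control (-0.96, SE 0.11, limma adjusted p = 5.29e-06), or 1.95-fold lower. Gata2 read 6.63, 6.44 and 6.90 in AML Compound against 6.20, 6.22 and 6.03 in AML Control (0.51, SE 0.11, adjusted p = 0.0022).

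Hlf read 3.28, 3.19 and 3.34 in AML Compound against 2.73, 2.94 and 2.76 in AML Control (0.46, SE 0.10, adjusted p = 0.002). Its AML Control values lay near the array medians over all probe sets, 2.66 to 2.67. Hhex read 5.61, 5.76 and 5.64 in AML Compound against 5.19, 5.21 and 5.32 in AML Control (0.43, SE 0.10, adjusted p = 0.00213). The groups were apart for 5 of the 9 factors, these 4 genes and Lmo2, and for 41.7% of all genes. Mecom, Erg, Tal1, Lmo2 and Prdm16 were not called, with differences between -0.31 and 0.03. The sum of the 8 stem and progenitor markers was 34.4 to 35.2 in AML Compound and 32.5 to 33.2 in AML Control, with 3 of the 7 tested higher and 1 lower. The mature myeloid sum was 45.9 to 46.8 in AML Compound and 35.2 to 35.5 in AML Control, with 4 of 9 higher and 1 lower. The megakaryocyte sum was 23.3 to 24.4 in AML Compound and 14.6 to 15.3 in AML Control, with 2 of 5 higher and 0 lower. Ppbp among the 5 averaged 10.46 in AML Compound and 2.73 in AML Control, and Itga2b averaged 3.13 and 3.44. The small Y-linked differences of AML Compound, given above, stand beside these results too. Their part in the result was not tested.

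In LSK cells Compound was followed by lower levels of 3 factors, Lyl1, Erg and Lmo2, and by no rise that passed the test. Of all genes 34.2% were called, 14.2% higher and 20.0% lower. The median difference was -0.31 over the 9 factors and -0.05 over all genes. Lyl1 read 5.79 and 5.66 on the 2 LSK Compound arrays used, against 7.31, 6.93 and 7.32 in LSK Control (-1.46, SE 0.13, limma adjusted p = 8.59e-08), or 2.75-fold lower. Erg read 7.01 and 7.10 in LSK Compound against 7.39, 7.53 and 7.53 in LSK Control (-0.42, SE 0.13, adjusted p = 0.0177), and Lmo2 read 5.43 and 5.51 in LSK Compound against 5.77, 5.82 and 5.75 in LSK Control (-0.31, SE 0.08, adjusted p = 0.00751). The LSK Compound arrays lay under all LSK Control arrays for the 3 genes, and for Hhex and Prdm16, which were not called. The groups were thus apart for 5 of the 9 factors, and for 53.3% of all genes.

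The remaining factors in LSK Compound were not called. Gata2 differed by 0.01 (95% interval -0.26 to 0.28), Hlf by -0.05 (-0.29 to 0.19), Tal1 by -0.32 (-0.73 to 0.10), Mecom by 0.38 (0.04 to 0.72, adjusted p = 0.0783), Hhex by -0.28 (-0.51 to -0.05, adjusted p = 0.0542) and Prdm16 by -0.34 (-0.62 to -0.06, adjusted p = 0.0576). The Erg call rested on few arrays, since leaving out LSK Compound replicate 2, LSK Compound replicate 3, LSK Control replicate 2 or LSK Control replicate 3 gave adjusted p of 0.111, 0.0532, 0.0506 and 0.0503. Without LSK Compound replicate 2, Lmo2 had an adjusted p of 0.0706. Without LSK Control replicate 1, 5 factors were called, with Mecom higher (0.47, adjusted p = 0.0493) and Hhex lower (-0.33, adjusted p = 0.0417) beside the other 3. Without LSK Compound replicate 2 Mecom was called higher too (0.62, adjusted p = 0.0176). Over 27 alternatives (other processing or other sets of arrays), Hhex was called lower in 7 and Prdm16 in 8. For Prdm16 these included quantile normalization (adjusted p = 0.0249) and the 2 groups compared alone (adjusted p = 0.0351).

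The Y-linked RNA and lower Xist of the LSK Compound arrays, given above, stand beside each of these results. Both arrays used shared this trait, so it cannot be told apart from Compound in LSK cells. The mature myeloid sum was 49.0 to 49.8 in LSK Compound and 57.4 to 58.9 in LSK Control, with 2 of 9 markers higher and 6 lower. The megakaryocyte sum was 23.3 to 23.6 in LSK Compound and 17.9 to 19.3 in LSK Control, with 2 of 5 higher and 3 lower. The sum of the 8 stem and progenitor markers was 43.8 to 43.9 in LSK Compound and 39.6 to 40.6 in LSK Control. Of the 7 tested 3 were higher and 2 lower. Slamf1, a surface marker of stem cells and not among those tested, averaged 3.97 in LSK Compound and 2.14 in LSK Control. Flt3 and Cd48 went the other way, at 5.57 and 6.03 in LSK Compound against 7.38 and 6.82 in LSK Control. The mast cell and basophil sum was 36.0 to 36.1 in LSK Compound and 35.4 to 36.0 in LSK Control, with 3 of the 6 tested higher and 2 lower. Their part in the results was not tested.

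The response to Compound differed between the cell types for 2 of the 9 factors, 2 more positive and 0 more negative in AML cells, where 17.1% of all genes were called, 8.69% more positive and 8.37% more negative. The AML response minus the LSK response was 0.71 for Hhex (SE 0.14, adjusted p = 0.00187) and 0.51 for Hlf (SE 0.15, adjusted p = 0.0278). Without AML Control replicate 1, AML Control replicate 3, AML Compound replicate 1, LSK Compound replicate 2 or LSK Compound replicate 3, the Hlf call missed the threshold (adjusted p = 0.0656, 0.0631, 0.0511, 0.0534 and 0.105) and 1 factor was called. The Hlf call also missed it without AML Compound replicate 3 (0.0552) or LSK Control replicate 2 (0.0741), where Lyl1 was called instead (0.0285 and 0.0109). Without AML Compound replicate 2, Gata2 was called (0.0166). Lyl1, which fell under Compound in both cell types, gave 0.50 (95% interval 0.13 to 0.86, adjusted p = 0.0585). Gata2 gave 0.49 (0.13 to 0.85, adjusted p = 0.0572). The Y-linked RNA and lower Xist of the LSK Compound arrays stand beside these results too. The same difference was -3.10 for Eif2s3y (adjusted p = 4.98e-09) and 2.35 for Xist (adjusted p = 1.98e-06). Compound and this trait of the arrays cannot be told apart in LSK cells. The part of this trait was not tested.

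Dox and Compound were compared directly within each cell type. In AML cells 7 of the 9 factors differed, 3 higher under Dox and 4 lower, where 47.7% of all genes were called, 23.0% higher and 24.7% lower. AML Dox minus AML Compound was -2.64 for Lyl1 (SE 0.11, adjusted p = 3.62e-12), -1.96 for Gata2 (SE 0.11, adjusted p = 1.36e-10), -1.26 for Erg (SE 0.12, adjusted p = 6.57e-08) and -1.08 for Hhex (SE 0.10, adjusted p = 3.8e-08). Mecom (0.59, adjusted p = 0.00235), Lmo2 (0.38, adjusted p = 0.000335) and Prdm16 (0.30, adjusted p = 0.043) were higher under Dox. The Prdm16 call missed the threshold without AML Dox replicate 1 (0.153), AML Dox replicate 3 (0.0953), AML Compound replicate 2 (0.177), AML Compound replicate 3 (0.0775) or any 1 LSK Control array (0.0517 to 0.0521). Hlf was not shown to differ between the treatments, with an interval of -0.26 to 0.17 for the difference, and neither was Tal1 (-0.34 to 0.40). The mature myeloid sum was 36.6 to 37.8 in AML Dox and 45.9 to 46.8 in AML Compound. Of these 9 markers 1 was higher and 3 were lower under Dox. The megakaryocyte sum was 15 to 15.9 in AML Dox and 23.3 to 24.4 in AML Compound. Here 1 of 5 was higher and 2 were lower, and Ppbp among the 5 averaged 2.58 in AML Dox and 10.46 in AML Compound. The mast cell and basophil sum was 22.9 to 23.7 in AML Dox and 27.5 to 29.6 in AML Compound. Of the 6 tested 0 were higher and 3 lower. Uty, Eif2s3y and Kdm5d were lower under Dox (-0.30, -0.34 and -0.46, adjusted p = 0.0197, 0.0415 and 0.00272). Their part in the result was not tested.

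In LSK cells 5 of the 9 factors were higher under Dox than under Compound and 0 were lower, where 32.3% of all genes were called, 18% higher and 14.3% lower. LSK Dox minus LSK Compound was 1.15 for Lyl1 (SE 0.13, adjusted p = 1.53e-06), 0.48 for Hhex (SE 0.11, adjusted p = 0.00182), 0.46 for Lmo2 (SE 0.08, adjusted p = 0.000285), 0.57 for Mecom (SE 0.16, adjusted p = 0.0106) and 0.38 for Hlf (SE 0.11, adjusted p = 0.0172). Lyl1 was therefore lower under Dox than under Compound in AML cells and higher under Dox than under Compound in LSK cells. Without LSK Compound replicate 2 the Mecom difference was 0.33 and not called (adjusted p = 0.214). Without LSK Dox replicate 1 or LSK Compound replicate 3 the Hlf difference was not called (adjusted p = 0.0689 and 0.116). The mast cell and basophil sum was 27.7 to 28.0 in LSK Dox and 36.0 to 36.1 in LSK Compound. Of the 6 tested 1 was higher and 3 were lower under Dox. The mature myeloid sum was 52.4 to 52.7 in LSK Dox and 49.0 to 49.8 in LSK Compound. Of these 9 markers 5 were higher and 2 lower under Dox. The Y-linked RNA of the LSK Compound arrays stands beside these results too, with Eif2s3y lower under Dox (-3.45, adjusted p = 6.95e-12) and Xist higher (2.34, adjusted p = 1.75e-08). Their part was not tested.

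A second probe set exists for Mecom and for Prdm16. The second one of Mecom read 2.72 to 3.64 on the 17 arrays, below the first, and did not show the rise under Dox: it gave -0.05 in AML cells (adjusted p = 0.821) and -0.02 in LSK cells (adjusted p = 0.943). The Mecom rises above therefore hold for 1 of its 2 probe sets. Which part of the gene each probe set covers was not analysed here. The second one of Prdm16 read 2.04 to 2.49, at about the 40th percentile of its arrays. Whether paralogs share probes was not analysed here.

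Genes that work with the 9 factors were taken as lists, whose counts are read beside the shares of all genes tested. In AML Dox 23.0% of all genes were called higher and 25.6% lower, and in LSK Dox 9.21% were called higher and 9.93% lower. In AML Compound 12.8% were called higher and 19.2% lower, and in LSK Compound 14.2% higher and 20.0% lower. A list's count near these shares is no result about the list. Of 12 partners of the complex (RUNX and CBF proteins, Fli1, Ldb1, E proteins, ETO proteins and SSBP proteins), 3 rose and 7 fell in AML Dox, with a median of -0.47. Tcf12, an E protein that dimerises with TAL1 and LYL1, averaged 9.68 ± 0.03 in AML Dox and 6.59 ± 0.07 in AML Control (SD, n = 3 each), a rise of 3.09 (adjusted p = 7.7e-14). Cbfa2t3, a corepressor of the complex, averaged 3.73 ± 0.50 in AML Dox and 6.47 ± 0.07 in AML Control (SD, n = 3 each, -2.74, adjusted p = 6.86e-10). The ETS factor Fli1, a paralog of Erg, fell by 1.71 (adjusted p = 4.78e-11), and Ssbp4, which stabilises the complex cofactor LDB1, fell by 1.47 (adjusted p = 2.48e-10).

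In LSK Dox 1 of the 12 partners rose and 2 fell, with a median of -0.03: Runx1 fell by 0.40 (adjusted p = 0.00923), Ldb1 fell by 0.25 (adjusted p = 0.0386) and Cbfa2t3 rose by 0.54 (adjusted p = 0.0449). The response to Dox differed between the cell types for 9 of the 12, 3 more positive and 6 more negative in AML cells, where 40.1% of all genes differed, among them Tcf12 (3.04, adjusted p = 4.38e-11) and Cbfa2t3 (-3.28, adjusted p = 1.6e-08). Under Compound 2 of 12 rose and 4 fell in AML cells, and 1 rose and 8 fell in LSK cells. The E protein gene Tcf4 rose by 1.16 in AML Compound (adjusted p = 9.01e-06), and Cbfb, which encodes the partner of RUNX proteins, fell by 0.79 in AML Compound (adjusted p = 0.000578) and by 1.36 in LSK Compound (adjusted p = 5.67e-06).

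Of the 7 factors Tal1, Lyl1, Lmo2, Gata2, Erg, Runx1 and Fli1, which share binding sites in blood progenitors, 5 fell and 1 rose in AML Dox, with a median of -1.45. In LSK Dox 2 of the 7 fell and 0 rose, with a median of -0.15. This grouping was chosen after its values were seen, and 5 of its 7 genes are among the 9 factors. The difference in the Dox response was called more negative in AML cells for 5 of the 7, and for 21.5% of all genes. Since the grouping followed the values, this count is no result about the group.

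Inhibitors of E proteins and other antagonists were 6 genes, of which 1 rose and 3 fell in AML Dox, with a median of -0.49. Id1, whose protein keeps E proteins from DNA, averaged 3.92 ± 0.04 in AML Dox and 6.15 ± 0.11 in AML Control (SD, n = 3 each, -2.23, adjusted p = 2.67e-11). Id2, of the same family, rose by 2.05 (adjusted p = 4.96e-11). Nfil3, a bZIP repressor, fell by 0.75 (adjusted p = 0.00013), and Zfpm1, the GATA cofactor FOG1, fell by 1.14 (adjusted p = 1.74e-06). In LSK Dox 2 rose and 1 fell, with Id3 higher by 2.09 (adjusted p = 3.23e-08). Under Compound, Id1 fell in AML cells (-1.66, adjusted p = 8.95e-09) and in LSK cells (-1.28, adjusted p = 4.59e-07), and Id2 rose in both (0.86, adjusted p = 1.4e-05, and 1.86, adjusted p = 2.59e-09).

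Stem cell genes that these factors are known to regulate, most of them for surface proteins, were measured for 11 of 12 listed. In AML Control 0 of the 11 were higher and 9 were lower than in LSK Control, where 14.2% of all genes were lower, with a median of -0.78, among them the endothelial-type receptor gene Eng (-3.29, adjusted p = 4.63e-10) and the sialomucin genes Emcn (-2.43, adjusted p = 1.31e-09) and Cd34 (-1.43, adjusted p = 1.65e-07). Under Dox 2 of 11 rose and 3 fell in AML cells, with a median of -0.23. Cd34 averaged 3.44 ± 0.37 in AML Dox and 8.67 ± 0.06 in AML Control (SD, n = 3 each, -5.23, adjusted p = 4.9e-15), and Kit, the stem cell factor receptor gene, averaged 3.44 ± 0.44 in AML Dox and 6.22 ± 0.06 in AML Control (SD, n = 3 each, -2.78, adjusted p = 4.11e-11).

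In LSK Dox 5 of these 11 genes rose and 3 fell, with a median of 0.05. Procr, a receptor that marks stem cells, averaged 6.57 ± 0.19 in LSK Dox and 3.79 ± 0.16 in LSK Control (SD, n = 3 each, 2.78, adjusted p = 1.97e-10). Fgd5, which encodes an exchange factor inside the cell, rose by 1.57 (adjusted p = 5.79e-07) and the receptor gene Tek by 1.34 (adjusted p = 3.38e-06), while Angpt1, which encodes a secreted ligand of the TEK receptor, fell by 0.89 (adjusted p = 5.15e-06). Under Compound 3 rose and 1 fell in AML cells, with Kit higher by 1.54 (adjusted p = 4.93e-07), and 3 rose and 4 fell in LSK cells, with Procr higher by 2.72 (adjusted p = 3.02e-10).

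Paralogs and other stem cell regulators moved in both directions. Of 8 paralogs 1 rose and 2 fell in AML Dox and 1 rose and 1 fell in LSK Dox, with Lmo4, a relative of Lmo2, up by 1.63 in AML cells (adjusted p = 1.28e-10) and by 0.30 in LSK cells (adjusted p = 0.0342). Of 18 other regulators 6 rose and 3 fell in AML Dox, among them Hoxa9 (1.32, adjusted p = 7.12e-07) and Pbx3 (0.96, adjusted p = 1.23e-07), both tied to MLL fusion leukemia, and Etv6 (-1.34, adjusted p = 5.9e-10) and Runx3 (-1.53, adjusted p = 1.07e-09). In LSK Dox 3 rose and 5 fell. In AML Compound 0 of 8 paralogs were called, whereas 4 of the 18 regulators rose and 5 fell. The repressor gene Gfi1 rose by 1.07 in AML Compound (adjusted p = 1.85e-07) and by 2.55 in LSK Compound (adjusted p = 5.58e-12), where 1 of the 18 rose and 4 fell and 2 of 8 paralogs rose and 2 fell.

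**Figure D4:**
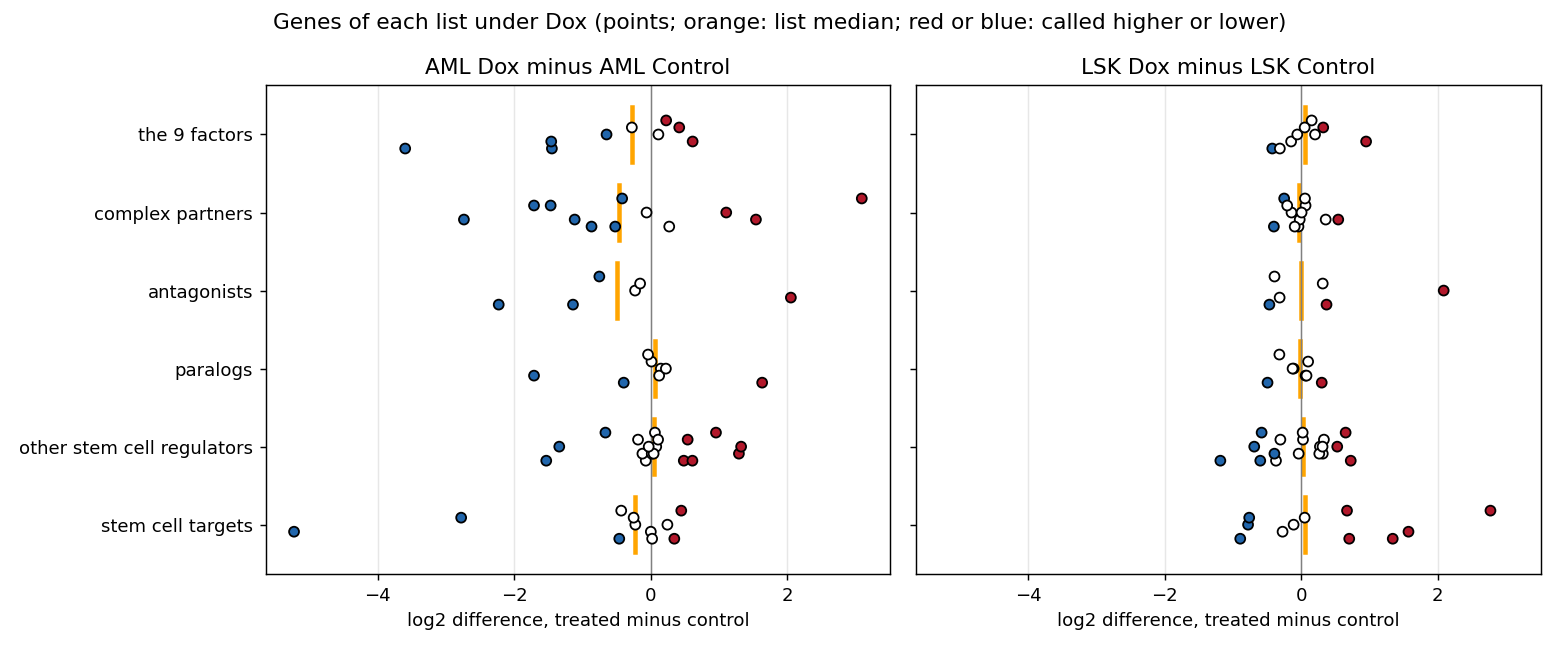
Log2 difference under Dox, treated minus control (x axis), of the genes in each list (rows), in AML cells on the left and LSK cells on the right. Points are genes, filled when called higher or lower at a limma adjusted p under 0.05, and the orange line is the median of the list, -0.28 for the 9 factors in AML cells.

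The genes whose pattern over the 17 arrays was most like that of a factor were named by Pearson r, as a description over arrays that share groups. For Lyl1 these were Slc38a2 (0.988), B4galnt1 (0.988) and Mapk14 (0.987). For Gata2 they were Fads1 (0.978), Cd34 (0.975) and Ccdc115 (0.974), and for Erg they were Pphln1 (0.978), Ddx27 (0.977) and Exosc5 (0.975). Lmo2 was most like Chd9 (0.993), Nipbl (0.988) and Idh1 (0.983). Hlf was most like Ighm (0.982), Igkv5-43 (0.969) and Fads3 (0.969), and Tal1 like Cabcoco1 (0.968), Abi3 (0.963) and Zfp706 (0.958). Mecom was most like Iqgap1 (0.945), Usp45 (0.93) and Crybg3 (0.918), and Hhex like Slc44a2 (0.957), Iscu (0.94) and Cd44 (0.929). Prdm16 was left out, since its group means spanned less than 1 log2 unit.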

How the data were processed

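RNA of 18 samples in 6 groups was measured on 1-colour Affymetrix whole-transcript arrays. The deposited values are log2 expression per probe set, made by the authors with RMA per the submitters' processing notes; its version and any genome build were not given in the sources used here. Of 41345 probe sets, 23521 map to 1 gene symbol, 1814 to several and 16010 have none listed, and only the first were named. Each of 22180 genes was read from its brightest such probe set, by the mean of 17 arrays, and a gene was tested if it lay above the 40th percentile of its array on at least 3 arrays.

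Differences were tested two-sided in R 4.3.3 by limma 3.58.1 (a mean for each group, 17 arrays together, eBayes; 11 residual and 5.26 prior degrees of freedom), with Benjamini-Hochberg adjustment over 16337 genes in each of 9 comparisons and a threshold of 0.05. The number of arrays limits the precision. The steps were tested on simulated data. The factors and the related and marker lists were chosen with earlier results of these data known. All 9 factors are named, up to 4 genes per related list by smallest p, and the 3 genes most alike in pattern. Comparisons with a shared control are given side by side. Alternatives were other scalings, filters, priors and weights, all 18 arrays, a replicate block, other probe sets and each array left out.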

Additional observations from a re-analysis of the deposited data

Results flagged for a closer look

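The response to Dox differed between AML and LSK cells, by limma's test of the difference itself, for 4 factors of 9, all more negative in AML cells, where 40.1% of all genes differed: Lyl1 (-3.29, adjusted p = 8.42e-11), Gata2 (-1.31, adjusted p = 3.34e-06), Erg (-1.03, adjusted p = 7.08e-05) and Hhex (-0.85, adjusted p = 6.21e-05). The response to Compound differed by the same kind of test for Hhex (0.71, adjusted p = 0.00187) and Hlf (0.51, adjusted p = 0.0278), both more positive in AML cells, where 17.1% of all genes differed. These comparisons share the control arrays of each cell type. The LSK Compound arrays used held Y-linked RNA that LSK Control lacked, so Compound and this trait cannot be told apart in LSK cells.

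The array left out of all tests, LSK Compound replicate 1, read 4.27 for the second probe set of Mecom and 2.94 for that of Prdm16, above each LSK Control array (at most 2.97 and 2.38). Its 40th percentile was 2.88, against 2.32 to 2.41 on the other arrays. Groups of 3 arrays were not searched for outliers.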

How the results depend on the processing

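Of 81 differences (9 factors in 9 comparisons), 41 were called, of which 18 kept their call under each alternative, other probe sets included, and 32 of the others stayed uncalled under each. Among 2241 recomputed values on the same probe sets, 64 lost a call, 37 gained one and 0 reversed a called direction. With all 18 arrays the count of factors called was 3 for AML Dox minus AML Control, 0 for AML Compound minus AML Control, 1 for LSK Dox minus LSK Control, 2 and 1 for the AML minus LSK responses to Dox and to Compound, and 4 for AML Dox minus AML Compound. Gata2 and Erg then had adjusted p of 0.0754 and 0.114 in AML Dox. Calls over all genes fell in the same order to 4253, 1074, 608, 2240, 524 and 3898, against 7935, 5232, 3127, 6547, 2786 and 7791 with 17 arrays. They were 2937 against 5590 for LSK Compound minus LSK Control, 1439 against 4828 for AML Control minus LSK Control and 2545 against 5283 for LSK Dox minus LSK Compound.

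For LSK Compound minus LSK Control 5 factors were called with arrays centred on the median, a filter at the 60th percentile or array quality weights. For the Compound response 4 were called with that filter, with dim values set to the filter level or with the weights. The estimate of these weights stopped before it converged (0.00633, 16.1 and 0.25 for the LSK Compound arrays), and gave 8533, 4736 and 8462 calls over all genes for LSK Compound minus LSK Control, the Compound response and LSK Dox minus LSK Compound. The other probe set gave -0.047, -0.023, -0.0047 and -0.29 for Mecom in AML Dox and LSK Dox minus control and in AML Dox and LSK Dox minus Compound, and -0.17 for Prdm16 in AML Dox minus AML Compound. That Prdm16 call was lost in 14 of 28 alternatives. Leaving out 1 array at a time gave 2 to 5 factors for LSK Compound minus LSK Control, 1 to 3 for LSK Dox minus LSK Control and 1 to 3 for the Compound response; a lone LSK Compound array was assumed to vary like the other groups. The replicate block lost 1 call, Hlf in LSK Dox (adjusted p = 0.0521), which left 2 factors called there, and it changed no other call. Arrays of the same number did not deviate together (r from -0.114 to 0.104 over 40 pairs). Leaving out both LSK Compound arrays, chosen after seeing the data, changed no count of factors called. The cause of these changes was not tested.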
